A study of Mus musculus with 6 samples.

Results

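Chemokines are small secreted or membrane-bound proteins that guide leukocytes along a gradient, and each is read by 1 or more G-protein-coupled receptors on the cells that migrate. In the small intestine, epithelial cells supply ligands that bring lymphocytes into the mucosa, stromal cells of lymphoid tissue supply ligands that arrange B and T cell zones, and leukocytes themselves make ligands during inflammation. Atypical receptors bind chemokines without the usual G-protein signal and remove them. The genes described here are all those in the deposited expression table whose symbol begins with Ccl, Cxcl, Cx3cl, Xcl, Ccr, Cxcr, Cx3cr, Xcr or Ackr followed by a number. The rule found 63 of 54012 listed genes, of which 39 are ligands, 23 receptors and 1 a pseudogene (Ccl19-ps1). Transcripts were read in 57 of them, and 38 (25 ligands and 13 receptors) had a mean of at least 1 TPM over all libraries and were tested. TPM is a transcript abundance per length, scaled so that all libraries have one total, so levels of different genes can be set side by side.

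The libraries come from small intestine of mice aged 8 to 12 weeks. The labels name 3 wild-type mice (WT below) and 3 TLR4ΔIEC mice, the usual notation for deletion of Tlr4, the lipopolysaccharide receptor, in intestinal epithelial cells. The driver of the deletion and the stretch of intestine are not given in the sources used here, and p-values measure the spread between these animals. Tlr4 itself stood at 0.65, 0.57 and 0.70 TPM in WT, against 1.29, 1.22 and 4.81 TPM in libraries labelled TLR4ΔIEC (log2 fold change 0.92, SE 0.40, limma adjusted p = 0.243). It was thus not lower in the libraries whose label names its deletion. Gene-level TPM of bulk tissue pool all cell types and cannot check the label. Every direction below is therefore between libraries as labelled. Epithelial markers were abundant in each library, and those of T cells, B cells, macrophages and fibroblasts were also read. TLR4ΔIEC replicate 2 stood apart: Ptprc, the pan-leukocyte antigen CD45, read 2.11 TPM there and 5.40 to 15.4 TPM in the other libraries, the summed fibroblast markers 56.5 TPM against 151.4 to 274.1 TPM, and 12221 genes reached 1 TPM there, compared with 13197 to 13634. The ribosomal gene Rn18s read 12836 TPM in that library, against 3806 to 7032 TPM in the others. Genes above 0 TPM numbered 20031 there and 21558 to 21842 in the others. Whether RNA or library quality played a part was not tested. In bulk tissue, fewer cells of a type and less RNA per cell cannot be told apart.

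None of the 38 tested chemokine and receptor genes passed an adjusted p of 0.05 in limma across all genes (smallest adjusted p = 0.131), where 0.119% of all genes passed. Members with an unadjusted p under 0.05 numbered 9 (23.7%), near the 21.2% of all genes, and 10 (26.3%) had all 3 libraries of one genotype above the 3 of the other, near the 27.6% of all genes. Neither share is thus a result about chemokines. By direction, 4 members (10.5%) lay wholly above WT in libraries labelled TLR4ΔIEC, where 24.1% of all genes did, and 6 (15.8%) lay wholly below, where 3.53% did. At an unadjusted p under 0.05 the split was 4 higher (10.5%) and 5 lower (13.2%), against 18.4% and 2.77% of all genes. The 4 genes wholly above were all epithelial ligands: Ccl25, Cx3cl1, Cxcl16 and Ccl20. The 6 wholly below were the leukocyte ligands Ccl5, Ccl24 and Ccl22, the stromal ligand Ccl11 and the lymphocyte receptors Ccr9 and Ccr10. Over the tested members the median log2 fold change was −0.25, against 0.16 over all genes tested. The split depended on how TPM were scaled: it was 2 above and 8 below under median-of-ratios scaling, 2 and 7 with TPM rescaled without the 20 highest genes, and 0 and 8 rescaled without alpha-defensin, mitochondrial and 18S-like genes. With a library left out, groups already apart stay apart, so the counts could only rise, save through the filter. They were 9 above and 6 below without TLR4ΔIEC replicate 2 and 4 above and 16 below without TLR4ΔIEC replicate 1. The shares of all genes apart in these fits and under the 3 scalings are not given here. Without TLR4ΔIEC replicate 1, Ccl25 and Ccl8 passed (adjusted p = 0.0421 and 0.0267), in a fit where 367 genes in all passed, and without WT replicate 2 or WT replicate 3 the 9 members at an unadjusted p under 0.05 became 5, as the share of all genes went from 21.2% to 12.5% and 12.0%.

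**Figure D1:**
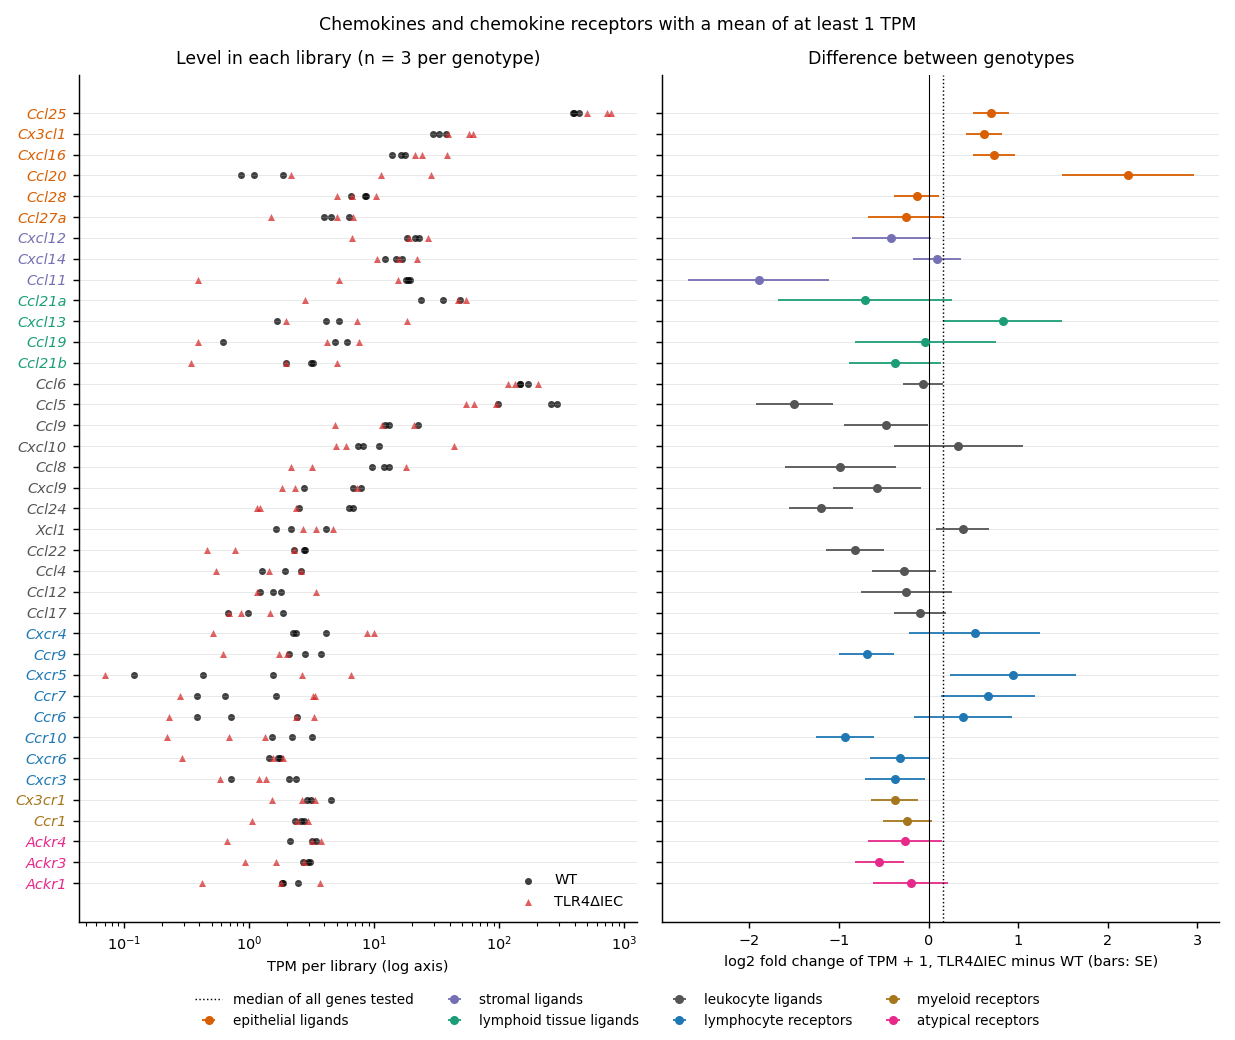
Tested chemokine and receptor genes, coloured by class. Left, TPM in each library on a log axis (black circles, WT; red triangles, TLR4ΔIEC; n = 3 each; the reading of 0 for Ccl12 in TLR4ΔIEC replicate 2 cannot be drawn). Right, log2 fold change with its standard error; epithelial ligands hold the 4 genes wholly above WT, and the dotted line is the median of all genes, 0.16.

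Toll-like receptors signal through NF-kB, and the neutrophil-attracting CXC ligands are textbook targets of that factor, so promoters were searched for an NF-kB-like motif, GGGNNTTTC on either strand. The windows, from RefSeq on GRCm38.p6, run from 250 bases before to 50 after each gene start, and 47 of the 63 members had at least 1 (54 windows). The motif was in 12 of the 54 (22.2%) and in 4.36% of the 32851 windows of all genes. Related neighbours such as Cxcl1, Cxcl2 and Cxcl3 share a match of the same letters and are not independent. These 4 stretches of 100 bases before the RefSeq start are shown because they hold the motif in Ccl20, which lay wholly above WT, and in the Cxcl genes, which were barely read. Capitals mark the matches.

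Ccl20, chr1:83116666-83116765, plus strand: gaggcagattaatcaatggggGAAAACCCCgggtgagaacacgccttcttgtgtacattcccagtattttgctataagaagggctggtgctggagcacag
Cxcl1, chr5:90891145-90891244, plus strand: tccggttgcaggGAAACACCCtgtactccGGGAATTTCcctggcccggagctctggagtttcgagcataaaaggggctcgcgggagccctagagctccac
Cxcl2, chr5:90903799-90903898, plus strand: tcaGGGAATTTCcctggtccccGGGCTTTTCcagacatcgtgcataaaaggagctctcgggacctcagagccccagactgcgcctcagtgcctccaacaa
Cxcl3, chr5:90786001-90786100, plus strand: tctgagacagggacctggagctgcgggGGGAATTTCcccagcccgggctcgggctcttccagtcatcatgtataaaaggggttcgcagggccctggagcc

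Of the 12 genes with the motif, 6 were tested, and Ccl20 alone among those had groups that did not overlap. Of all genes tested, 27.6% had such groups, so this count is no result about the motif. The other genes with the motif were Cxcr4, Xcl1, Cxcl9, Ccl9 and Cxcr3 among tested genes and Cxcl1, Cxcl2, Cxcl3, Cxcr2, Ccr3 and Ccl27b among those too low to test. A STAT-like motif, TTCNNNGAA, was in 7.41% of member windows and 8.30% of all. An interferon-response-like motif, TTTCNNTTT, was in 11.1% and 10.6%, with a match in Cxcl10 and Ccl19. A Cdx-like motif, TTTATGG, was in none of the 54 and in 2.75% of all windows. Matches are letters in a window and show no binding.

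Epithelial ligands held 6 tested genes of 10, and 4 of the 6 were wholly above WT in libraries labelled TLR4ΔIEC (class median log2 fold change 0.66). Of all genes tested, 24.1% lay wholly above WT (median 0.16). Classes were set with earlier results of these data known. Ccl25 (ENSMUSG00000023235, chromosome 8, 4325210 to 4360020, plus strand, GRCm38) encodes the ligand that draws gut-homing T cells and plasma cell precursors into the small intestine through CCR9. It was the most abundant member, at 394.3, 390.9 and 433.9 TPM in WT, against 500.1, 784.7 and 728.6 TPM in libraries labelled TLR4ΔIEC. The groups did not overlap, and TLR4ΔIEC replicate 1 lay nearest to WT. Group means were 406.3 ± 23.9 and 671.1 ± 150.8 TPM (SD, n = 3 each), with a log2 fold change of 0.70 (SE 0.21, unadjusted p = 0.0112, limma adjusted p = 0.137). Ccl25 alone made up 36.3 to 46.9% of the summed ligand TPM in WT, against 44.5 to 70.4% in libraries labelled TLR4ΔIEC.

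Cx3cl1 (chromosome 8, 94772009 to 94782427, plus strand) encodes fractalkine, a ligand tethered to the membrane by a stalk, read by the receptor of mucosal macrophages. It read 37.6, 33.2 and 29.5 TPM in WT, against 38.9, 57.3 and 61.3 TPM in libraries labelled TLR4ΔIEC (log2 fold change 0.62, SE 0.20, limma adjusted p = 0.162). The lowest of the latter was barely above the highest WT library. Cxcl16 (chromosome 11, 70453983 to 70459984), another tethered ligand, which binds CXCR6, read 17.6, 16.5 and 13.8 TPM in WT, against 37.9, 21.2 and 24.3 TPM in libraries labelled TLR4ΔIEC. Its log2 fold change came to 0.73 (SE 0.23, limma adjusted p = 0.153), with TLR4ΔIEC replicate 1 the highest here, unlike for Ccl25 and Cx3cl1.

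Ccl20 (ENSMUSG00000026166, chromosome 1, 83116766 to 83119167, plus strand) is made by the epithelium over Peyer's patches and by inflamed epithelium, and attracts CCR6-bearing B cells and dendritic cells. It read 1.10, 0.86 and 1.88 TPM in WT, against 28.5, 2.15 and 11.4 TPM in libraries labelled TLR4ΔIEC. Replicates 1 and 3 of these were far above WT, and replicate 2 lay just above the highest WT library. The log2 fold change came to 2.23 (SE 0.74, limma adjusted p = 0.162), and it was 1.48 without TLR4ΔIEC replicate 1 and 3.10 without TLR4ΔIEC replicate 2. B cell markers, summed over 8 genes, stood at 72.8, 3.10 and 125.0 TPM in libraries labelled TLR4ΔIEC, against 12.9 to 40.9 TPM in WT. Gp2, a marker of the M cells of lymphoid follicles, was at 5.45 TPM in TLR4ΔIEC replicate 3 and at most 0.74 TPM elsewhere. The 8 genes of the lymphoid stroma and M cell list that holds Gp2 summed to 86.3 to 104.3 TPM in WT, against 111.2, 99.1 and 148.6 TPM in the others. Their part in the Ccl20 values was not tested.

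The other 2 tested epithelial ligands overlapped between genotypes. Ccl28, a mucosal ligand of CCR10 that attracts IgA plasma cells, averaged 7.83 ± 1.09 TPM in WT, against 7.29 ± 2.70 TPM in libraries labelled TLR4ΔIEC (log2 fold change −0.13, SE 0.25). Ccl27a read 3.97 to 6.23 TPM in WT, against 1.49 to 6.78 TPM in libraries labelled TLR4ΔIEC. Cxcl5 did not exceed 0.31 TPM and Cxcl15 did not exceed 0.07 TPM and was listed at 0 in all libraries labelled TLR4ΔIEC, while Cxcl17 and Ccl27b are listed at 0 in each library. Ccl27a and Ccl27b are near-identical copies, so their reads could be split between them.

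Epithelial markers were also higher in sum in libraries labelled TLR4ΔIEC. The 7 epithelial markers summed to 7915 to 8523 TPM in WT, against 10250 to 13980 TPM in those libraries, with 5 of the 7 wholly above WT (24.1% of all genes were). Epcam read 1256.1, 1200.2 and 1259.5 TPM against 1869.1, 2125.7 and 1927.8 TPM. Relative to the mean log2 level of these 7 markers, Ccl25 differed by 0.19 (exact two-sided permutation p = 0.5), Cx3cl1 by 0.11 (exact p = 0.9) and Cxcl16 by 0.22 (exact p = 0.7). On this scale all 3 overlapped. Markers of the stretch of intestine moved with the labels as well: 8 ileal markers summed to 3519 to 8368 TPM in WT and 11240 to 37110 TPM in the others, and 8 proximal markers to 639.9 to 1838 TPM and 237.6 to 325.2 TPM. The ileal sums were mostly Fabp6 (2352 to 7321 TPM in WT and 9526 to 34630 TPM in the others). Of the ileal list 6 genes lay wholly above WT, while Amn and Fgf15 overlapped (log2 fold changes 0.42 and −0.04). The proximal list was not uniform either: 6 of its genes lay wholly below WT (3.53% of all genes did) and 2 wholly above, S100g (9.47 to 21.6 TPM in WT and 97.4 to 121.5 TPM in the others) and Slc40a1 (6.38 to 8.87 and 18.1 to 34.8 TPM). Their part in the values of the epithelial ligands, Ccl25 included, was not tested. Ccl20 differed by 1.72 (exact p = 0.4) and Ccl28 by −0.64 (exact p = 0.2). Over the 15 such ratios computed, the adjusted p was at least 0.643, and 3 against 3 allows no exact p below 0.1.

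**Figure D2:**
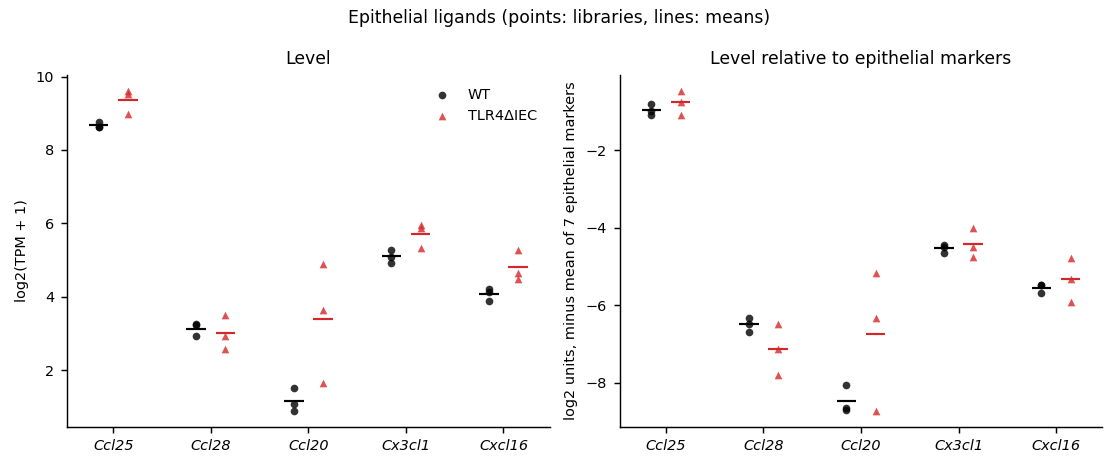
Epithelial ligands in each library. Left, log2(TPM + 1); right, the same minus the mean log2 level of 7 epithelial markers (black circles, WT; red triangles, TLR4ΔIEC; lines are means of n = 3). The separation of Ccl25, Cx3cl1 and Cxcl16 on the left is not seen on the right.

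Scaling brought Ccl25, Cx3cl1 and Cxcl16 nearer to 0, and none of the 4 genes wholly above WT changed sign. The median log2 fold change of all genes tested fell too. It was 0.16 on the deposited TPM and −0.011 under median-of-ratios scaling. It was 0.011 without the 20 highest genes and −0.12 without alpha-defensin, mitochondrial and 18S-like genes. A downward shift was thus not particular to these members. Rescaled without alpha-defensin, mitochondrial and 18S-like genes, the log2 fold changes were 0.37 for Ccl25, 0.30 for Cx3cl1, 0.42 for Cxcl16 and 2.11 for Ccl20, and each of the 4 then overlapped WT. Summed Paneth cell markers, which take a large share of TPM, were at 46690 to 55670 TPM in WT, against 6864 to 34640 TPM in libraries labelled TLR4ΔIEC. Ccl5, Ccl24, Ccl22, Ccl11, Ccr9 and Ccr10 kept groups that did not overlap under each of the 3 other scalings, with log2 fold changes more negative than on the deposited TPM.

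**Figure D3:**
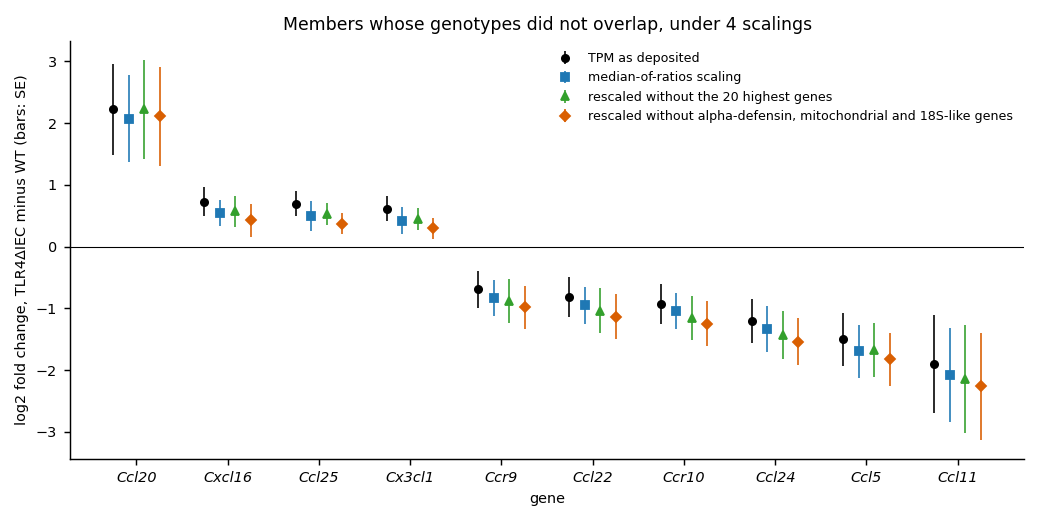
Log2 fold change (points) and standard error (bars) of the 10 members whose genotypes did not overlap, on TPM as deposited and under 3 other scalings. Ccl25, Cxcl16 and Cx3cl1 move toward 0 with rescaling, and the 6 lower genes move away from it. The median of all genes tested fell as well, from 0.16 to −0.011, 0.011 and −0.12.

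Among leukocyte ligands, 12 of 21 genes were tested and 3 lay wholly below WT in libraries labelled TLR4ΔIEC (class median log2 fold change −0.38). Of all genes tested, 3.53% lay wholly below. Ccl5 (ENSMUSG00000035042, chromosome 11), the RANTES ligand stored by effector and intraepithelial T cells, read 97.5, 289.8 and 260.6 TPM in WT, against 62.6, 53.9 and 94.3 TPM in libraries labelled TLR4ΔIEC. WT replicate 1 came close to TLR4ΔIEC replicate 3, and the other 2 WT libraries were well above. Group means were 216.0 ± 103.6 and 70.3 ± 21.3 TPM (SD, n = 3 each), with a log2 fold change of −1.50 (SE 0.43, unadjusted p = 0.00997, limma adjusted p = 0.131), the smallest p among the members. T cell and intraepithelial lymphocyte markers, summed over 12 genes, read 94.8, 314.9 and 333.5 TPM in WT, against 144.2, 84.3 and 163.6 TPM in libraries labelled TLR4ΔIEC. Their part in the Ccl5 values was tested only as a ratio to Cd3d, Cd3e and Cd3g. The difference was then −1.02 (exact permutation p = 0.1, the smallest possible). Relative to Ptprc, which is not particular to T cells, it was −1.40 (exact permutation p = 0.3).

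Ccl24, an eotaxin made by macrophages, read 2.49, 6.75 and 6.24 TPM in WT, against 1.15, 2.36 and 1.21 TPM in libraries labelled TLR4ΔIEC (log2 fold change −1.21, SE 0.36, limma adjusted p = 0.140). WT replicate 1 was only just above TLR4ΔIEC replicate 2. Ccl22, a dendritic cell ligand of CCR4, read 2.78, 2.30 and 2.75 TPM in WT, against 0.77, 0.46 and 2.29 TPM in libraries labelled TLR4ΔIEC, where replicate 3 sat next to WT (log2 fold change −0.82, SE 0.33, limma adjusted p = 0.215). Ccl17, the other CCR4 ligand, overlapped at 0.68 to 1.86 TPM in WT, against 0.69 to 1.46 TPM in libraries labelled TLR4ΔIEC. Summed macrophage and dendritic cell markers overlapped as well, at 235.6 to 271.7 TPM and 112.4 to 330.2 TPM.

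Among interferon-induced and monocyte ligands, Cxcl10 and Ccl8 were highest in TLR4ΔIEC replicate 1, while Cxcl9 was not. Cxcl10, which attracts CXCR3-bearing T cells, read 7.40, 10.9 and 8.19 TPM in WT, against 43.3, 4.91 and 5.97 TPM in libraries labelled TLR4ΔIEC. Replicate 1 was above all WT libraries and the other 2 were below, so that the log2 fold change of 0.33 (SE 0.72) became −0.60 without that replicate. Cxcl9, induced by interferon gamma, read 2.76 to 7.90 TPM in WT, against 7.33, 1.83 and 2.34 TPM in libraries labelled TLR4ΔIEC. Ccl8, a monocyte chemoattractant of resident macrophages, was again highest in replicate 1 and below WT in the other 2, at 9.57, 11.9 and 13.2 TPM in WT, against 17.9, 2.17 and 3.17 TPM in libraries labelled TLR4ΔIEC. Its log2 fold change came to −0.99 (SE 0.62, limma adjusted p = 0.410), and −1.78 without TLR4ΔIEC replicate 1.

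Ccl12, Ccl7, Ccl2 and Cxcl11 were likewise highest in TLR4ΔIEC replicate 1, at 3.41, 1.89, 2.00 and 1.91 TPM, against at most 1.79, 0.79, 1.16 and 0.80 TPM in the other libraries. Cxcl11 is annotated as a polymorphic pseudogene. Ccl6, a myeloid CC ligand, was abundant and near equal in the genotypes, at 154.3 ± 12.1 and 151.7 ± 45.5 TPM (log2 fold change −0.06, SE 0.22). Its neighbour Ccl9 read 12.3 to 22.3 TPM in WT, against 4.88 to 20.9 TPM in libraries labelled TLR4ΔIEC. Xcl1, made by T and NK cells for cross-presenting dendritic cells, read 1.63 to 4.08 and 2.69 to 4.64 TPM, and Ccl4 1.26 to 2.58 and 0.54 to 2.58 TPM.

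Neutrophil chemokines were barely read in either genotype. Cxcl1 did not exceed 0.60 TPM, Cxcl2 0.50 TPM and Cxcl3 0.15 TPM, and their receptor gene Cxcr2 did not exceed 0.16 TPM. Cxcr1 is listed at 0 throughout, as is Ccl26. Neutrophil markers were low too: the 6 genes summed to 5.64 to 6.56 TPM in WT, against 0.05 to 10.2 TPM in libraries labelled TLR4ΔIEC, and Ly6g was listed at 0 in 5 libraries. Since depth cannot be read from TPM, no limit of detection can be given for these genes. Ccl1 was listed at 0 in all libraries labelled TLR4ΔIEC and reached 0.34 TPM in WT, and Ccl3 reached 1.10 TPM.

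Of the 3 stromal ligands, Ccl11 alone was apart between genotypes, and lay wholly below WT. Of all genes tested, 27.6% were apart in either direction and 3.53% lay wholly below. Ccl11 (chromosome 11), eotaxin-1, which holds eosinophils in the intestinal lamina propria, read 19.2, 18.6 and 17.8 TPM in WT, a narrow range, and 15.6, 0.39 and 5.23 TPM in libraries labelled TLR4ΔIEC. Replicate 1 was close to WT and replicate 2 near 0. The log2 fold change was −1.90 (SE 0.79, unadjusted p = 0.0471, limma adjusted p = 0.231), and −0.94 without TLR4ΔIEC replicate 2. Fibroblast markers, summed over 8 genes, read 243.5, 181.7 and 152.1 TPM in WT, against 274.1, 56.5 and 151.4 TPM in libraries labelled TLR4ΔIEC. Their part in the Ccl11 values was not tested.

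Cxcl12, the broadly made stromal ligand of CXCR4, read 21.1, 22.6 and 18.4 TPM in WT, against 26.9, 6.69 and 18.8 TPM in libraries labelled TLR4ΔIEC (log2 fold change −0.42, SE 0.44). Only replicate 2 left the WT range downward. Cxcl14 read 12.2 to 16.8 TPM and 10.5 to 22.1 TPM, and its log2 fold change of 0.09 turned negative under each of the 3 other scalings. Ccr3, the eotaxin receptor of eosinophils, did not exceed 0.25 TPM and was not tested, and the eosinophil peroxidase gene Epx did not exceed 0.11 TPM. Of the other eosinophil genes listed, Prg2 reached 1.63 TPM in WT replicate 2 and Siglecf 5.15 TPM in TLR4ΔIEC replicate 3. The 7 eosinophil and mast cell markers summed to 149.5, 17.9 and 15.3 TPM in WT, against 11.4 to 17.9 TPM in the others. The mast cell genes Mcpt1 and Mcpt2 made up most of the sum in WT replicate 1 (101.6 and 36.4 TPM), so it says little of eosinophils. The part of eosinophils and mast cells in the Ccl11 values was likewise not tested.

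Lymphoid tissue ligands overlapped between genotypes in all 4 tested genes (class median log2 fold change −0.21). Ccl21a, which brings CCR7-bearing T cells and dendritic cells into lymph vessels and T zones, read 23.4, 48.3 and 35.3 TPM in WT, against 53.7, 2.82 and 46.9 TPM in libraries labelled TLR4ΔIEC. Replicate 2 had far less than any other library. Cxcl13, which forms B cell follicles through CXCR5, read 1.66, 4.12 and 5.25 TPM in WT, against 7.27, 1.97 and 18.3 TPM in libraries labelled TLR4ΔIEC (log2 fold change 0.83, SE 0.67, limma adjusted p = 0.521). It was 1.52 without TLR4ΔIEC replicate 2 (groups then apart, limma adjusted p = 0.206) and 0.17 without TLR4ΔIEC replicate 3. Ccl19 read 0.62, 6.06 and 4.82 TPM and 4.19, 0.39 and 7.53 TPM, so that WT replicate 1 and TLR4ΔIEC replicate 2 were both low. Ccl21b and Ccl21d are near-identical to Ccl21a, Ccl21b read 0.34 to 5.01 TPM and Ccl21d is listed at 0, and the share of reads among them is uncertain.

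Cxcr5, Ccr7 and Cxcr4, receptors of naive and follicular lymphocytes, were highest in TLR4ΔIEC replicates 1 and 3, as Cxcl13 was. The 8 B cell markers were highest in the same 2 libraries, with the sums of 72.8, 3.10 and 125.0 TPM given above for libraries labelled TLR4ΔIEC, against 12.9, 22.7 and 40.9 TPM in WT, and their part in these values was not tested. Cxcr5, the B cell follicle receptor, read 0.12, 0.43 and 1.56 TPM in WT, against 2.62, 0.07 and 6.49 TPM in libraries labelled TLR4ΔIEC (log2 fold change 0.94, SE 0.70, limma adjusted p = 0.485). Ccr7, the T zone receptor, read 0.38, 0.64 and 1.63 TPM and 3.35, 0.28 and 3.23 TPM (log2 fold change 0.66, SE 0.52). Replicates 1 and 3 were above all WT libraries for both genes, and replicate 2 below all. Cxcr4 had the same order, at 2.25, 2.36 and 4.12 TPM in WT, against 8.80, 0.51 and 9.97 TPM in libraries labelled TLR4ΔIEC. Without TLR4ΔIEC replicate 2 the log2 fold changes were 1.70 for Cxcr5, 1.24 for Ccr7 and 1.44 for Cxcr4, with groups apart, and limma adjusted p was 0.184, 0.177 and 0.139. Without TLR4ΔIEC replicate 3 Ccr7 was 0.38 and Cxcr4 0.0087, and without TLR4ΔIEC replicate 1 they were 0.36 and 0.090.

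Ccr6, the receptor for CCL20, had a log2 fold change of 0.38, and 0.93 without TLR4ΔIEC replicate 2 and 0.024 without TLR4ΔIEC replicate 3. It read 0.71, 0.38 and 2.42 TPM in WT, against 2.38, 0.23 and 3.31 TPM in libraries labelled TLR4ΔIEC. Ptprc read 5.40, 8.20 and 14.4 TPM in WT, against 13.5, 2.11 and 15.4 TPM. Set against Ptprc within each library, Cxcr5 was higher by 1.04 and Ccr7 by 0.76 log2 units in libraries labelled TLR4ΔIEC, and for both the groups did not overlap (exact permutation p = 0.1, the smallest possible, adjusted p = 0.643). At a pseudocount of 5 TPM these differences were 0.43 and 0.28. For Cxcr5 the separation depended on the 1 TPM added before the logarithm. In TLR4ΔIEC replicate 2, Cxcr5 read 0.07 TPM beside 2.11 TPM of Ptprc, against 1.56 TPM beside 14.4 TPM in WT replicate 3. Without the added 1 TPM the former ratio is the lower, so the Cxcr5 groups overlap. Relative to Ptprc, Cxcr4 differed by 0.61 (exact p = 0.2) and Ccr6 by 0.48 (exact p = 0.3).

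**Figure D4:**
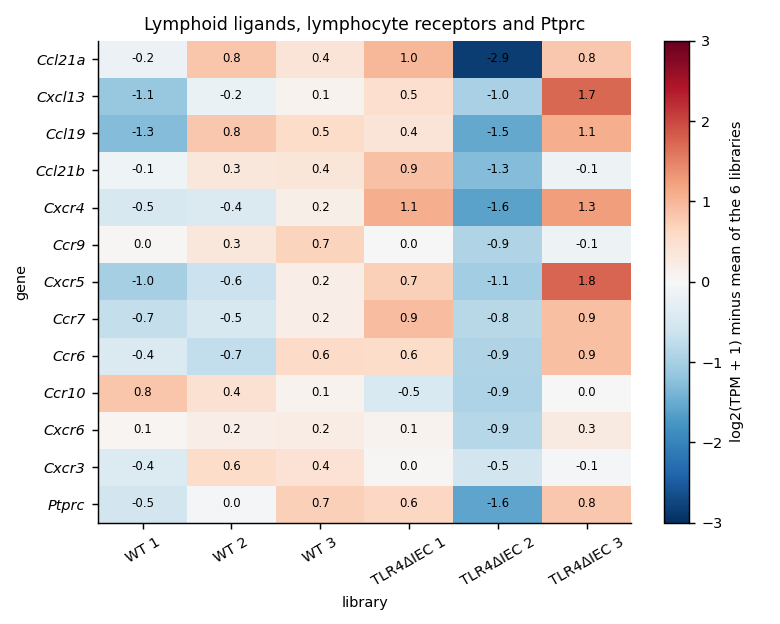
Lymphoid tissue ligands, lymphocyte receptors and Ptprc by library. Each cell is log2(TPM + 1) minus the mean of the 6 libraries (blue low, red high). TLR4ΔIEC replicate 2 is low in all 13 rows, while replicates 1 and 3 are high for Cxcr5, Ccr7 and Cxcr4.

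Gut-homing receptors Ccr9 and Ccr10 lay wholly below WT. They were 2 of the 8 tested lymphocyte receptors, where 3.53% of all genes tested lay wholly below. Ccr9, carried by T cells and plasma cell precursors that home to the small intestine, read 2.10, 2.78 and 3.75 TPM in WT, against 2.00, 0.62 and 1.72 TPM in libraries labelled TLR4ΔIEC (log2 fold change −0.69, SE 0.30, unadjusted p = 0.0566, limma adjusted p = 0.248). WT replicate 1 and TLR4ΔIEC replicate 1 were nearly equal. Ccr9 shares its span with other annotated genes (Slc6a20a, Lztfl1), and without strand their reads may mix. Relative to Ptprc the difference was −0.59 (exact p = 0.4) and relative to the Cd3 genes −0.21 (exact p = 0.5).

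Ccr10, the receptor of IgA plasma cells, read 3.16, 2.18 and 1.52 TPM in WT, against 0.69, 0.22 and 1.33 TPM in libraries labelled TLR4ΔIEC (log2 fold change −0.93, SE 0.32, unadjusted p = 0.0228, limma adjusted p = 0.171). Plasma cell markers were lower with it: the 6 genes summed to 945.8, 992.3 and 1003 TPM in WT, against 517.4, 189.0 and 570.8 TPM in libraries labelled TLR4ΔIEC, with 4 of the 6 wholly below WT (3.53% of all genes were). Their part in the Ccr10 values was not tested. Relative to Ptprc, Ccr10 differed by −0.83 (exact permutation p = 0.3), and on this scale the groups overlapped. Cxcr3 and Cxcr6, receptors of effector and tissue-resident T cells, overlapped, at 0.72 to 2.37 and 0.58 to 1.37 TPM for Cxcr3 and 1.44 to 1.76 and 0.29 to 1.85 TPM for Cxcr6. Ccr4 reached 0.77 TPM and Ccr8 0.12 TPM, and these were not tested.

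Myeloid and atypical receptors had negative log2 fold changes in all 5 tested genes, none with an unadjusted p under 0.05, and without TLR4ΔIEC replicate 2 Ackr4, Ackr1 and Ccr1 were positive (0.21, 0.25 and 0.043). Cx3cr1, the fractalkine receptor of intestinal macrophages, read 4.47, 3.14 and 2.89 TPM in WT, against 3.37, 1.53 and 2.62 TPM in libraries labelled TLR4ΔIEC (−0.38, SE 0.26), and Ccr1 read 2.33 to 2.75 and 1.05 to 2.94 TPM. Xcr1, the receptor of cross-presenting dendritic cells, was too low to test but its libraries did not overlap, at 0.37, 0.46 and 0.41 TPM in WT, against 0.30, 0.15 and 0.26 TPM in libraries labelled TLR4ΔIEC. Ccr2, the monocyte receptor, read 0.13 to 1.53 TPM over the 6 libraries.

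Ackr3, a scavenger of CXCL12, read 3.07, 2.69 and 2.97 TPM in WT, against 2.72, 0.92 and 1.65 TPM in libraries labelled TLR4ΔIEC (log2 fold change −0.55, SE 0.27, unadjusted p = 0.0814). Ackr4, which scavenges CCL25, CCL19 and CCL21, read 2.11 to 3.43 TPM and 0.66 to 3.76 TPM. Ackr1, the receptor of venules, read 1.82 to 2.46 TPM and 0.42 to 3.66 TPM, and Ackr2 reached 0.54 TPM. TLR4ΔIEC replicate 2 was the lowest library for all 4 of these genes, as it was for Ptprc.

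Ligands and receptors were then set side by side for 26 known pairs, of which 15 had both genes tested. The 2 log2 fold changes had the same sign in 7 pairs and opposite signs in 8. For CCL25 and CCR9 they were 0.70 and −0.69, with both genes apart between genotypes in opposite directions. The pairs CX3CL1 and CX3CR1 (0.62 and −0.38) and CXCL16 and CXCR6 (0.73 and −0.32) had the same arrangement, but their receptor genes overlapped between genotypes. CCL20 and CCR6 were both positive (2.23 and 0.38), as were CXCL13 and CXCR5 (0.83 and 0.94). CCL28 and CCR10 were both negative (−0.13 and −0.93).

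Many chemokine genes lie in clusters, and close neighbours were not all alike. Of all genes tested, 27.6% were apart between genotypes. On chromosome 8, Ccl22, Cx3cl1 and Ccl17 lie within 66.5 kb (94745590 to 94812036), where Ccl22 was wholly below WT in libraries labelled TLR4ΔIEC, Cx3cl1 wholly above and Ccl17 overlapped. Ccl5, Ccl9, Ccl6, Ccl3 and Ccl4 lie within 138.9 kb on chromosome 11 (83525778 to 83664683), and only Ccl5 was apart. Ccl11 shares a stretch of 270.1 kb on chromosome 11 with Ccl2, Ccl7, Ccl12, Ccl8 and Ccl1, and was the only one of these apart. Of the 38 tested members, 15 overlap another annotated gene, among them Ccl25, Cxcl16, Cxcl10, Ccr9, Ccr10 and Cxcr5.

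Genes that act with chemokines were counted in 3 lists (signalling, adhesion, processing). None of them passed the adjusted threshold. Of 31 tested signalling genes behind the receptors, 8 (25.8%) were higher and 0 lower at an unadjusted p under 0.05 (limma), with a median log2 fold change of 0.15. The shares over all genes, against which the counts of all 3 lists are to be read, were 18.4% higher and 2.77% lower, with a median of 0.16. Gnb1, a G-protein beta subunit, read 261.0 to 271.0 TPM in WT, against 349.3 to 447.7 TPM in libraries labelled TLR4ΔIEC, and Gnai2, the inhibitory alpha subunit most used by chemokine receptors, 138.1 to 178.6 and 213.5 to 232.8 TPM. Both are made in many cell types. Of 13 tested adhesion genes, 1 was higher and 2 were lower (median −0.38).

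Itgae, the integrin chain by which intraepithelial T cells hold on to E-cadherin, read 4.40, 6.72 and 7.20 TPM in WT, against 3.03, 1.65 and 3.16 TPM in libraries labelled TLR4ΔIEC (log2 fold change −0.98, limma adjusted p = 0.117). Itgb1, the broadly made beta-1 integrin chain, had a log2 fold change of 0.38. Among 13 tested genes that process, bind or resemble chemokines, 3 were higher and 2 lower (median 0.29). Ext1, an enzyme of heparan sulfate, on which chemokines are displayed, had a log2 fold change of 0.75 (limma adjusted p = 0.0913), and Pf4, a CXC ligand whose symbol falls outside the naming rule, read 8.52, 4.52 and 5.14 TPM in WT, against 2.29, 2.15 and 2.57 TPM in libraries labelled TLR4ΔIEC (log2 fold change −1.04, limma adjusted p = 0.102).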

How the data were processed

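The members were taken by gene symbol, and the members, classes and lists were chosen with earlier results of these data known. The authors deposited TPM values, 1 column a library, per the file headers. Reads had been handled with fastp, HISAT and RSEM on GRCm38.p5, per the submitters' processing notes, which add no versions. Whether counting used strand was not given in the sources used here. TPM keep no read totals, so depth and counting error are unknown. The 13458 genes averaging 1 TPM or more entered 1 fit on log2(TPM + 1), which understates the change of low genes, with limma 3.58.1 in R 4.3.3 (lmFit, eBayes with trend, two-sided, Benjamini-Hochberg at 0.05), with genotype as the only term. The fit was tested on simulated data. Ratios to lineage markers used exact permutation tests. Named in full are members with an unadjusted p under 0.05 whose groups did not overlap, partners of those in the pair list, and the 2 highest of each class; for pathway lists, the 2 smallest p. Marker genes such as Gp2, S100g, Slc40a1, Epx and Ly6g, and single-library members, were chosen after their values were seen. Coordinates are from GENCODE M21 (GRCm38). Alternatives were pseudocounts, filters, 3 scalings, array weights, a replicate block and each library left out. Group means in the table were not used. The protein sequence step was not run, since no protein table was used here. Some genes are not reported here.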

Additional observations from a re-analysis of the deposited data

How the results depend on the processing

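No member was called by limma under any alternative except without TLR4ΔIEC replicate 1, so leaving out libraries gave 0 to 2 calls. At an unadjusted p under 0.05 the count of 9 ran from 5 to 13 when libraries were left out, in fits where 12.0% to 27.4% of all genes did so. Members wholly above WT numbered 4, but 2 under median-of-ratios scaling, 2 without the 20 highest genes, 0 without alpha-defensin, mitochondrial and 18S-like genes, and 4 to 9 with libraries left out. Members wholly below numbered 6, but 2 at a mean of at least 5 TPM, where 15 members remained, and 6 to 16 with libraries left out. Leaving out a library keeps apart the groups that were so, and thus could only raise both counts, save through the filter. The shares of all genes apart under these alternatives are not given here, so the counts show nothing particular to chemokines. Of 545 fold changes under alternatives, 30 changed sign, none of them in the 10 members whose genotypes did not overlap. For those 10 only the 3 scalings could have changed a sign. Groups that do not overlap keep their direction under each other alternative. With array weights the log2 fold changes were 0.13 for Ccl28, 0.012 for Ccl27a, 0.15 for Ccl17 and 0.035 for Ccl19, which was 0.0080 at a pseudocount of 5 TPM. Cxcl14 was −0.10, −0.072 and −0.22 under the 3 scalings. With 1 library left out the ranges that crossed 0 were −0.38 to 0.075 for Ccl28, −0.59 to 0.23 for Ccl27a, −0.29 to 0.10 for Ccl6, −0.92 to 0.023 for Ccl9, −0.60 to 0.86 for Cxcl10, −0.57 to 0.038 for Ccl4, −0.78 to 0.29 for Ccl12, −0.26 to 0.016 for Ccl17, −1.38 to 0.54 for Ccl21a, −0.70 to 0.72 for Ccl19, −0.91 to 0.17 for Ccl21b, −0.81 to 0.12 for Cxcl12, −0.15 to 0.35 for Cxcl14, −0.55 to 0.21 for Ackr4, −0.61 to 0.25 for Ackr1, −0.54 to 0.035 for Cxcr6 and −0.43 to 0.043 for Ccr1. Relative to epithelial markers they were −0.10 to 0.27 for Cx3cl1 and −0.058 to 0.51 for Cxcl16, and relative to Ptprc −0.87 to 0.093 for Cxcr3, −0.64 to 0.026 for Cxcr6 and −0.15 to 0.92 for Xcl1. With the Cd3 genes in place of Ptprc, Cxcr3 was 0.11 and Cxcr6 0.16. The causes were not tested. Replicate numbers name no shared animal, and deviations of same-numbered libraries correlated at −0.037, 0.035 and 0.118, not every library best with its own number; with the replicate block 0 members were called by limma and 9 had an unadjusted p under 0.05. With 3 animals per genotype, a simulation of this comparison over 13458 independent genes recovered 29 of 100 genes with a log2 change of 1, and for a log2 change of 2 it recovered 71 of 100.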
